A study of Mus musculus with 7 samples.

Results

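Glutathione S-transferases (GSTs) are liver enzymes that join glutathione to reactive or foreign compounds, so that these can be exported and excreted. The cytosolic enzymes fall into classes by sequence, and the genes examined here are 10 members of 3 classes, with 2 of the alpha class (Gsta3 and Gsta4), 5 of the mu class (Gstm1, Gstm2, Gstm3, Gstm4 and Gstm6) and 3 of the theta class (Gstt1, Gstt2 and Gstt3). They were taken by symbol, with earlier results of these livers known, from the 51426 genes of the deposited count tables, and they were chosen by measured values, among them the difference between TET1 KO and WT livers. That difference is therefore described for them without a p-value, and the calls counted below support nothing about them. All 10 were among the 14754 genes that passed the filter on low counts.

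The livers came from 7 male mice, namely 3 WT mice and 4 TET1 whole body knockout (TET1 KO) mice, each counted as 1 replicate. TET1 is an enzyme that oxidises 5-methylcytosine in DNA, and the KO line lacks it in every tissue, so that a difference seen in the liver need not start there. All mice received a high-fat diet (HFD) for 16 weeks from 8 weeks of age, the WT mice were littermates, and no group on a normal diet was measured. The labels give the strain C57BL/6J for both genotypes, whereas the methods take the KO allele from the line B6;129S4-Tet1tm1.1Jae/J, whose name records a mixed origin. RNA was counted per gene on strand-specific libraries of bulk tissue, and for no gene can fewer cells of a type be told apart from less RNA per cell.

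Library sizes lay between 15005277 and 22746138 counts and overlapped between the genotypes. Levels are given as CPM, the usual library-scaled count, after TMM normalization. Tet1 itself had between 1 and 4 counts in every liver of both genotypes, which is too few to check the labels. Tet2 differed by -0.01 on the log2 scale (edgeR's quasi-likelihood test, adjusted p = 0.984) and Tet3 by 0.32 (edgeR adjusted p = 0.223). The sum of 9 hepatocyte markers lay between 75923 and 93709 CPM in WT and between 94386 and 100903 CPM in TET1 KO livers, so the tissue was liver in all 7 libraries. The TET1 KO livers lay above the WT livers by a narrow gap. Only 2 of the 9 markers, Apoa1 and Apoc3, were higher in every TET1 KO liver, as were 11.7% of all tested genes. Alb, the most abundant marker, overlapped between the genotypes (42646 to 63896 and 48241 to 54750 CPM). The sum of 14 pericentral hepatocyte markers, genes of the zone around the central vein where many detoxifying enzymes are made, spanned 11059 to 12804 CPM in WT and 8230 to 14511 CPM in TET1 KO livers, and that of 12 periportal markers 5767 to 7971 and 5132 to 7487 CPM. The 8 cholangiocyte (bile duct) markers summed to 42.0 to 49.2 CPM in WT and 68.8 to 85.7 CPM in TET1 KO livers. All 6 that could be tested were higher on average, 5 with an unadjusted p under 0.05 and 0 with an adjusted p under 0.05. The 5 adipocyte markers summed to 5.43 to 14.7 and 27.3 to 52.3 CPM, of which Adrb3 made up most and was called (log2 fold change 2.00, edgeR adjusted p = 0.0218). Single libraries stood apart in both lists. TET1 KO replicate 4 had 144 counts of Krt19 and 105 of Epcam, against 15 to 33 and 5 to 16 in the other livers, and TET1 KO replicate 2 had 60 counts of Adipoq and 70 of Plin1, against 0 to 9 and 0 to 4. Among the pericentral markers, TET1 KO replicate 1 was low in Oat (210 CPM against 765 to 1073 in the other livers) and Cyp2e1 (3953 against 5759 to 7642). Not all of them were low there, and Tbx3 was highest in that liver. Sums over stellate cell, Kupffer cell, T, B and NK cell and blood markers overlapped between the genotypes (250 to 415 against 238 to 314 CPM, 207 to 341 against 157 to 340, 2.90 to 4.91 against 4.45 to 9.51, and 808 to 874 against 221 to 1119). Endothelial markers spanned 163 to 168 CPM in WT and 134 to 159 CPM in TET1 KO livers, none of them called. Pancreas markers summed to at most 0.912 CPM, and all 5 kidney markers stayed at the floor. The part of these markers in the results below was not tested.

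The 300 bases around a start site (250 before and 50 after) are shown for 4 genes, from RefSeq promoters of GRCm38.p6. Gsta3 is shown because, of the 8 genes here with a promoter entry (all but Gsta4 and Gstt2), it alone held the core of the antioxidant response element, TGACNNNGC on either strand, to which the oxidative stress factor NRF2 binds. That core occurred in 12.4% of the 32851 promoters of the same length. In Gsta3 it started 121 bases before the start site and is in capitals in the sequence at chr1:21240335-21240634 on the plus strand.
Gsta3: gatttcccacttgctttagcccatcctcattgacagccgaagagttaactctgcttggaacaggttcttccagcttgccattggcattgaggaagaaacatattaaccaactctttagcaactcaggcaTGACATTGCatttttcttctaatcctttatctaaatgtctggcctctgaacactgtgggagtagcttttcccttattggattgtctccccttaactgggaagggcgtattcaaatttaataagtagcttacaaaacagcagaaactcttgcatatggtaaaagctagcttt
The mu genes Gstm3, Gstm4 and Gstm6 lie on the minus strand of chromosome 3 in 1 cluster, with Gstm6 next to Gstm3, and their fold changes differed. Their sequences at chr3:107969125-107969424, chr3:108044810-108045109 and chr3:107953417-107953716 have each CG, the dinucleotide at which DNA is methylated and TET enzymes act, in capitals.
Gstm3: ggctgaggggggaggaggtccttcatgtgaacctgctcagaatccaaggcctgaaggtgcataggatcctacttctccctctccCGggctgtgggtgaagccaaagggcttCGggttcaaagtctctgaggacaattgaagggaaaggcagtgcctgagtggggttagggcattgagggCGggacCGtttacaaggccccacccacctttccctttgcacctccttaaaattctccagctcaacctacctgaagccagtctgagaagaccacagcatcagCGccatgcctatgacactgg
Gstm4: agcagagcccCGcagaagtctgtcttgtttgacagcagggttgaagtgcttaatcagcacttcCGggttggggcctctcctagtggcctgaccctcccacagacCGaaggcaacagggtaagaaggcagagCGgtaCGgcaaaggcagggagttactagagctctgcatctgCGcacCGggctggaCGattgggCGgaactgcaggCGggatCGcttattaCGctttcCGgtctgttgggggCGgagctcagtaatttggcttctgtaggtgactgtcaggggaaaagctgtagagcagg
Gstm6: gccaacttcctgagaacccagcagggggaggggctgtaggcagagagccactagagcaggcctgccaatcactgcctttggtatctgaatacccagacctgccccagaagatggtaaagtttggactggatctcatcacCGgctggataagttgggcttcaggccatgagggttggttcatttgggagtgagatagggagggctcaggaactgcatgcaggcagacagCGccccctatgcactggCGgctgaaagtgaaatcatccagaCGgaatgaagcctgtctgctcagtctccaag
Gstm3 had 5 CG, Gstm4 had 14 and Gstm6 had 4, against a median of 7 over all promoters (quartiles 3 and 20). Of the 3 genes in which all TET1 KO livers lay below the WT livers, Gstm4 thus lay above that median and Gstm3 and Gstm2 below it. Gsta3 had 2 CG, Gstm2 3, Gstt3 3 and Gstt1 8, while the 2 entries of Gstm1 had 14 and 8 and the other entries of Gstm6 had 5 and 9. The core of the xenobiotic response element, GCGTG on either strand, was found among these genes only for Gstm1, and in 32.4% of all promoters. Methylation was not measured in these livers, and a match of letters is not a site of binding.

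In WT livers the transcripts of the alpha gene Gsta3 and the mu gene Gstm1 stood above all other members. Exon lengths came from GENCODE M1 on NCBIM37, an older build than that of the counts, so the order of genes with close levels is uncertain. Per kilobase of exon, Gsta3 reached 1020 ± 133 CPM and Gstm1 852 ± 341 CPM (SD, n = 3), and their ranges overlapped. Gstt1 followed with 153 ± 29.996 CPM per kilobase and overlapped with neither neighbour. Gsta4 (49.7 ± 16.8), Gstt2 (32.2 ± 10.2), Gstm6 (30.2 ± 4.76), Gstm3 (29.5 ± 15.002), Gstm2 (29.0 ± 8.07), Gstm4 (18.6 ± 2.79) and Gstt3 (15.1 ± 2.74) came next, and no neighbours in this order were apart from each other beyond their ranges. With the longest transcript as the length, Gstm6 (51.0), Gstm2 (45.8) and Gstt3 (21.1) moved up, and Gsta3 and Gstt1 reached 1228 and 212 CPM per kilobase. In TET1 KO livers the first 3 genes kept their places with 840 ± 204, 611 ± 66.8 and 160 ± 10.9 CPM per kilobase (SD, n = 4). Gstt2 then came next with 57.1 ± 6.01, Gstm3 last but Gstm4 with 8.86 ± 2.28 and Gstm4 with 8.005 ± 1.76 CPM per kilobase. Gsta3 and Gstm1 together held 82.5% to 82.8% of the CPM of the 10 genes in the WT livers and 79.1% to 81.2% in the TET1 KO livers.

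**Figure D1:**
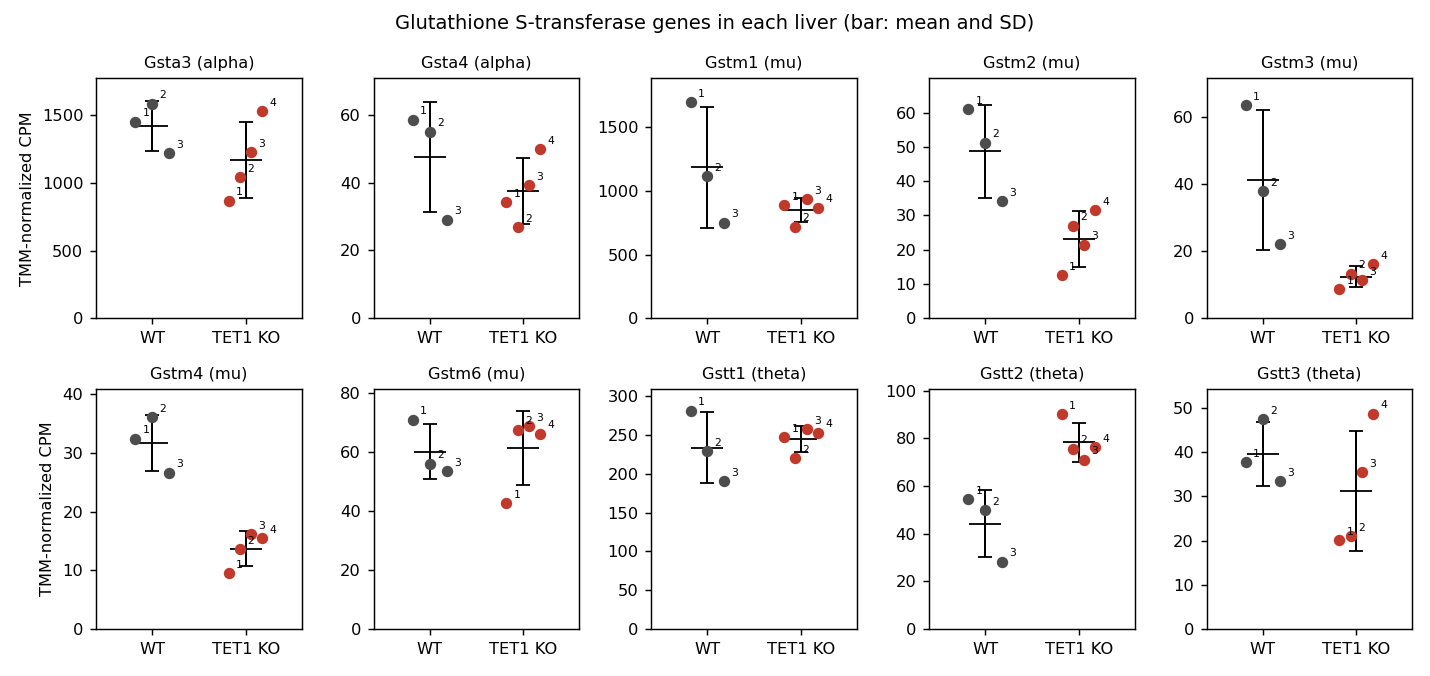
TMM-normalized CPM of the 10 genes in each liver (points, numbered by replicate), with the mean and SD of 3 WT and 4 TET1 KO livers. All 4 TET1 KO livers lie below the WT livers in Gstm2, Gstm3 and Gstm4 and above them in Gstt2, and the genotypes overlap in the other 6.

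Among the 10 genes, the mu genes Gstm3, Gstm4 and Gstm2 gave the widest differences between the genotypes. In TET1 KO livers the mean of Gstm3 was 0.300 times its WT mean, that of Gstm4 0.431 times and that of Gstm2 0.474 times. The other mu genes differed less, with 0.718 times for Gstm1 and 1.02 times for Gstm6. Over the 5 mu genes the median log2 fold change was -1.07, against 0.01 over all tested genes. Mu class enzymes conjugate epoxides and other electrophiles, and their genes in the mouse lie side by side on chromosome 3.

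Gstm3 (ENSMUSG00000004038, GRCm38 chromosome 3 from 107963696 to 107969174) had 63.4, 37.9 and 22.0 CPM in the WT livers and 8.58, 13.2, 11.4 and 16.1 CPM in the TET1 KO livers. The genotypes did not overlap, and WT replicate 3 lay closest to the TET1 KO livers, while the WT livers differed among themselves by 2.89-fold. The means were 41.1 ± 20.9 CPM (n = 3) and 12.3 ± 3.18 CPM (n = 4), a log2 fold change of -1.73 with a standard error of 0.31.

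Gstm4 (ENSMUSG00000027890, chromosome 3 from 108030571 to 108045179) had 32.4, 36.1 and 26.7 CPM in WT and 9.45, 13.6, 16.1 and 15.5 CPM in TET1 KO livers. The lowest WT liver stood well above the highest TET1 KO liver. The livers differed among themselves by 1.35-fold in WT and by 1.70-fold in TET1 KO. The means were 31.7 ± 4.76 and 13.7 ± 3.003 CPM, with a log2 fold change of -1.21 and a standard error of 0.19.

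Gstm2 (ENSMUSG00000040562, chromosome 3 from 107981702 to 107986420) had 60.9, 51.2 and 34.2 CPM in WT and 12.5, 27.05, 21.5 and 31.5 CPM in TET1 KO livers. The genotypes were separated by a narrow gap, between WT replicate 3 and TET1 KO replicate 4. The log2 fold change was -1.07 (standard error 0.28) between means of 48.7 ± 13.5 and 23.1 ± 8.16 CPM. The pseudogene Gstm2-ps1 on chromosome 5, looked at after its values were seen, held more counts than Gstm2, with 126 ± 49.2 CPM in WT and 53.7 ± 24.3 CPM in TET1 KO livers (log2 fold change -1.23, edgeR adjusted p = 0.0830, and 0.0398 without TET1 KO replicate 4). By exon words of 50 bases in the older GENCODE M1 annotation, it shared sequence with Gstm1 (9.98% of the words of Gstm1) and Gstm3 (6.72%). In that search it was not among the main places where words of Gstm2 recurred. The M1 model of the pseudogene has another identifier and 258 exon bases, so these shares need not hold for the entry that was counted.

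Gstm1 (ENSMUSG00000058135, chromosome 3 from 108012250 to 108017973), the most abundant mu gene, had 1695, 1115 and 752 CPM in WT and 886, 719, 935 and 869 CPM in TET1 KO livers. WT replicate 3 lay among the TET1 KO livers, and the WT livers spread far more than the TET1 KO livers. The log2 fold change of -0.48 (standard error 0.25) stands between means of 1187 ± 476 and 852 ± 93.1 CPM. It was -0.14 without WT replicate 1 and -0.74 without WT replicate 3. Since Gstm1 dominated the class, the sum over the 5 mu genes overlapped as well (1369 ± 521 and 963 ± 90.0 CPM). Without Gstm1 the other 4 summed to 228, 181 and 136 CPM in WT and 73.3, 122, 118 and 129 CPM in TET1 KO livers, with a narrow gap and no overlap. Gstm2, Gstm3 and Gstm4 in this sum were already separated one by one and were chosen with the contrast known. The sum therefore adds no support.

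Gstm6 (ENSMUSG00000068762, chromosome 3 from 107938847 to 107953641) had 71.0, 56.0 and 53.4 CPM in WT and 42.7, 67.6, 68.7 and 66.2 CPM in TET1 KO livers. In 3 of the 4 TET1 KO livers it lay within the WT range, and TET1 KO replicate 1 lay below it. The log2 fold change was 0.03 (standard error 0.18). In the order of the chromosome, the 7 mu genes spanned 149 kilobases, from Gstm5 (log2 fold change -1.36) through Gstm7 (-0.04), Gstm6 (0.03), Gstm3 (-1.73), Gstm2 (-1.07) and Gstm1 (-0.48) to Gstm4 (-1.21). Genes that were much lower in TET1 KO livers thus lay on both sides of 2 neighbours whose values were close to 0.

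In the theta class the separated gene had the opposite sign. Gstt2 (ENSMUSG00000033318, chromosome 10 from 75831842 to 75837419), whose enzyme is known for acting on sulfate esters and peroxides, had 54.4, 49.8 and 28.3 CPM in WT and 90.0, 75.5, 70.9 and 76.3 CPM in TET1 KO livers. The TET1 KO livers all lay above the WT livers, and WT replicate 3 was again the lowest of its group. The means were 44.2 ± 14.0 and 78.2 ± 8.24 CPM, a log2 fold change of 0.82 with a standard error of 0.21.

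Gstt1 (ENSMUSG00000001663, chromosome 10 from 75783813 to 75798584), which encodes the enzyme that conjugates small halogenated compounds, had 282, 229 and 191 CPM in WT and 247, 221, 258 and 253 CPM in TET1 KO livers. All TET1 KO livers lay within the WT range, and the log2 fold change was 0.07 (standard error 0.15). Gstt3 (ENSMUSG00000001665, chromosome 10 from 75774117 to 75781422) had 37.8, 47.5 and 33.4 CPM in WT and 20.04, 21.0, 35.4 and 48.7 CPM in TET1 KO livers. The TET1 KO livers lay on both sides of the WT range, with replicates 1 and 2 below it and replicate 4 above it, and the log2 fold change was -0.34 (standard error 0.28), with values from -0.63 without TET1 KO replicate 4 to -0.17 without TET1 KO replicate 1. The 3 theta genes lie within 63.3 kilobases, at 12.9 megabases from Tet1 on the same chromosome, and their sum was 318 ± 61.4 CPM in WT and 354 ± 26.3 CPM in TET1 KO livers.

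The 2 alpha genes among the 10 lay lower on average in TET1 KO livers, with overlap. Gsta3 (ENSMUSG00000025934, chromosome 1 from 21240565 to 21265575), whose enzyme in mouse liver detoxifies aflatoxin epoxide, had 1453, 1587 and 1221 CPM in WT and 871, 1044, 1230 and 1533 CPM in TET1 KO livers. Replicates 1 and 2 of the TET1 KO livers were below every WT liver, and the other 2 were within the WT range. The log2 fold change was -0.28 (standard error 0.22), with values from -0.44 without TET1 KO replicate 4 to -0.16 without TET1 KO replicate 1. Gsta4 (ENSMUSG00000032348, chromosome 9 from 78191966 to 78209349), whose enzyme clears 4-hydroxynonenal, a product of lipid peroxidation, had 58.5, 55.01 and 29.1 CPM in WT and 34.1, 26.8, 39.2 and 49.8 CPM in TET1 KO livers. WT replicate 3 lay among the TET1 KO livers, and the log2 fold change was -0.34 (standard error 0.25), with values from -0.62 without WT replicate 3 to -0.18 without WT replicate 1.

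Over the 10 genes, 7 log2 fold changes were negative (9 when libraries were scaled by size only, which turned Gstm6 and Gstt1 negative) and the median was -0.34. The medians by class covered these 10 genes only, with -0.31 in alpha, -1.07 in mu and 0.07 in theta. The alpha value came from 2 genes, and the other tested alpha genes had -1.83 (Gsta2), -3.05 (Gm3776) and -3.98 (Gsta1). Gstm3 and Gstm4 were called lower (edgeR adjusted p under 0.05) and 0 members were called higher. Among all tested genes 2.02% were called, 1.15% lower and 0.874% higher. The genotypes did not overlap in 4 of the 10, with 3 lower and 1 higher in every TET1 KO liver, against 22.5% of all tested genes, 10.8% lower and 11.7% higher. Nothing is read from these counts, because the contrast took part in the choice of the genes. The calls of members moved with single livers. Without WT replicate 2 none of the 10 was called, and without TET1 KO replicate 2 or 3 only Gstm4 was, while DESeq2 called 4 (Gstm2, Gstm3, Gstm4 and Gstt2).

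**Figure D2:**
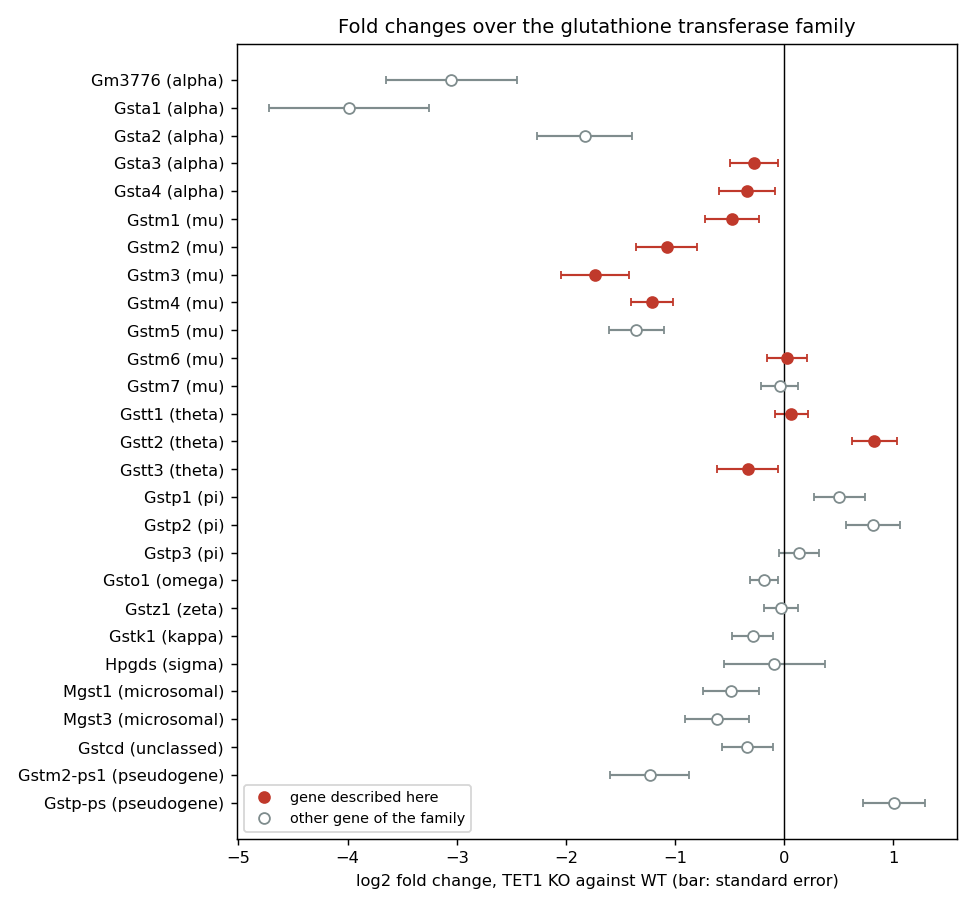
Log2 fold change of TET1 KO against WT livers (x axis, bars are standard errors) for the genes of the glutathione transferase family that passed the filter, by class. The genes described one by one are filled, and they run from Gstm3 at -1.73 to Gstt2 at 0.82.

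The livers of a genotype differed from each other in the same way for most of these genes. After the mean of its own genotype was taken from each log2 CPM, all 45 pairs of the 10 genes correlated positively over the 7 livers, with a median Pearson r of 0.63 (0.03 to 0.99). The median over all pairs of tested genes was -0.00. These points share their libraries, and the r values are given as a description. Gstm1 and Gstt1, of different classes and chromosomes, had the highest r (0.99), and Gstt2 with Gstt3, of the same class, the lowest (0.03).

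WT replicate 3 lay below the WT mean in all 10 genes, by 0.42 on the log2 scale on average, and WT replicate 1 above it in 9 of the 10 (mean deviation 0.30). Among the TET1 KO livers, replicate 1 was low (above its group mean in 3 of the 10 genes, mean deviation -0.30) and replicate 4 high (9 of the 10, mean deviation 0.30). The widest deviations were -0.80 for Gstm2 in TET1 KO replicate 1 and -0.77 for Gstm3 in WT replicate 3. Of the genes outside the family, the 5 whose deviations were most like the mean of the 10 genes over the 7 livers were Gm2451 (r = 0.99), Gapdh-ps15 (0.98), Rpusd4 (0.98), Bdh2 (0.98) and Zbed5 (0.98). In none of these 5 was the difference between the genotypes called, and the genotypes overlapped in each of them.

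**Figure D3:**
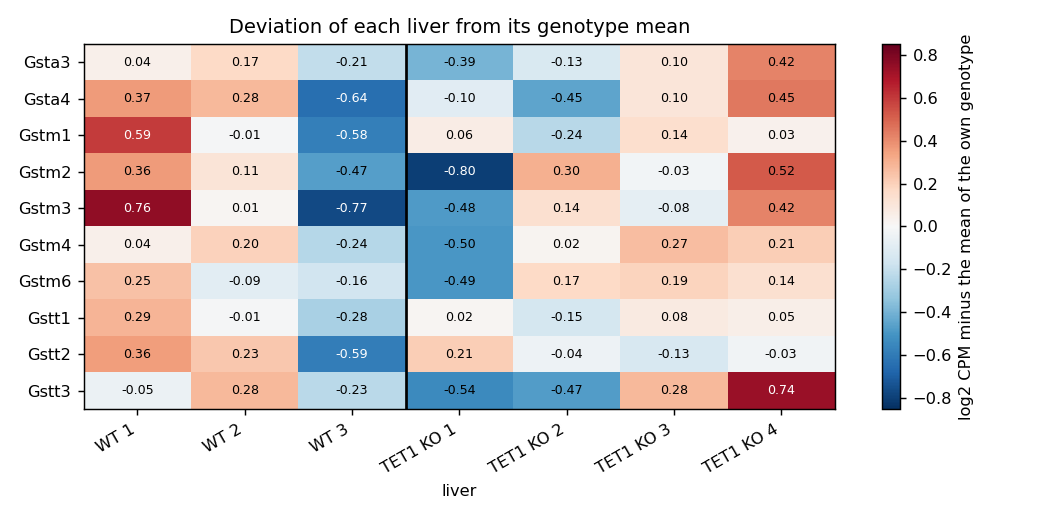
Deviation of each liver (columns) from the mean of its own genotype in log2 CPM for the 10 genes (rows), with red above and blue below the mean. WT replicate 3 is below the mean in every row, and TET1 KO replicate 4 is above it in 9 of 10.

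Exon sequence that recurs elsewhere in the genome can blur counts. Of the 50-base words in the exons of each gene, read in NCBIM37 with GENCODE M1 models, 25.1% of those of Gstm1, 20.7% of Gstm2, 14.9% of Gstm6 and 13.2% of Gstm3 occurred at another place in the genome. For Gstm2 most of these lay within the span of Wdr33, a gene outside the family (20.1% of the words). That span also held 21.6% of the words of the Gstm2-ps1 model, and the words are not shown to be exon sequence of Wdr33. For Gstm6 most lay in the span of the Gstm3 model, which overlaps that of Gstm6 in this annotation, so they are not shown to be exon sequence of Gstm3. Gstm4, Gstt3, Gsta3, Gsta4, Gstt1 and Gstt2 shared at most 0.729% of their words. The counts of Gstm1, Gstm2, Gstm3 and Gstm6 are therefore less certain than those of these 6 genes, and neither the handling of reads with several matches nor the strand setting of the counting was stated, so that overlapping antisense transcripts cannot be told apart either.

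**Figure D4:**
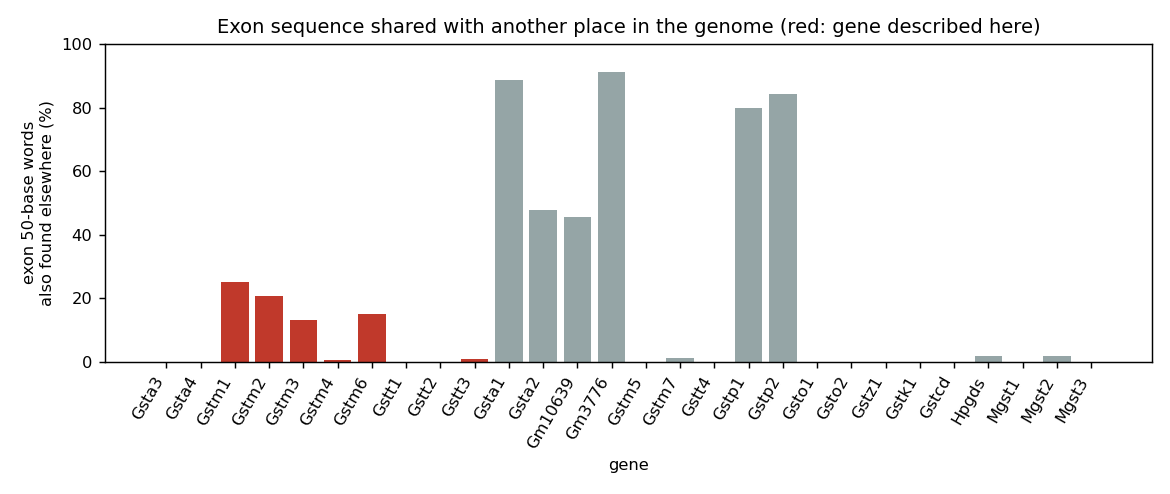
Percent of the 50-base words in the exons of each gene that also occur elsewhere in the genome (NCBIM37, y axis), for genes of the family with GENCODE M1 models. Gstm1 is highest of the 10 genes described (red) at 25.1%, while Gsta1, Gm3776, Gstp1 and Gstp2 lie between 79.9% and 91.3%.

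Of 20 other genes listed for the family, 19 were found and 15 passed the filter. Among these 15, edgeR called 3 lower and 0 higher in TET1 KO livers, where 1.15% of all tested genes were called lower and 0.874% higher. At an unadjusted p under 0.05, 4 were lower and 1 was higher, where 26.3% of all tested genes passed. The median log2 fold change of the 15 was -0.29. Gsta1, an alpha gene known to be induced by antioxidants, had 207, 86 and 18 counts in WT and 3, 2, 11 and 6 counts in TET1 KO livers, without overlap. On the log2 scale it fell by 3.98 with a standard error of 0.73 (edgeR adjusted p = 0.0246). Its neighbour Gm3776, with 206, 106 and 24 counts in WT and 8, 4, 20 and 14 counts in TET1 KO livers, fell by 3.05 on that scale with a standard error of 0.60 (edgeR adjusted p = 0.0331). These 2 genes share most of their exon words (80.8% of those of Gsta1 are in Gm3776), and together, a sum chosen after seeing the data, they gave a log2 fold change of -3.44 (edgeR adjusted p = 0.0229 over all genes). Gstm5, the mu gene at the other end of the cluster, fell from 9.65 ± 0.773 to 3.75 ± 1.21 CPM (log2 fold change -1.36, standard error 0.25, edgeR adjusted p = 0.0259). Its single values were 9.30, 9.12 and 10.5 CPM in WT and 1.94, 4.37, 4.25 and 4.45 CPM in TET1 KO livers, and it shared 0% of its words with other places. All 3 calls were lost without WT replicate 2, where the adjusted p was 0.0924 for Gsta1, 0.124 for Gm3776 and 0.113 for Gstm5. Each was also lost without TET1 KO replicate 2 (0.0632, 0.0816 and 0.0547) or 3 (0.0558, 0.0660 and 0.0676), that of Gsta1 without TET1 KO replicate 1 (0.0587), that of Gm3776 without WT replicate 1 (0.0558) or TET1 KO replicate 1 (0.0717), and that of Gstm5 without WT replicate 3 (0.0576). Over all alternatives the edgeR or DESeq2 adjusted p ran from 0.000843 to 0.0924 for Gsta1, from 1.12e-05 to 0.124 for Gm3776 and from 6.98e-05 to 0.113 for Gstm5.

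The other 12 did not pass the test in edgeR. Gsta2 had a log2 fold change of -1.83 (edgeR adjusted p = 0.0555), with WT replicate 3 (5.85 CPM) below TET1 KO replicate 4 (7.56 CPM). It was called by DESeq2 (adjusted p = 0.0280), and in edgeR without WT replicate 3 (0.00417) or TET1 KO replicate 4 (0.0342). Mgst1, the abundant microsomal enzyme of the endoplasmic reticulum and outer mitochondrial membrane, had 3481 ± 387 CPM in WT and 2479 ± 597 CPM in TET1 KO livers with no overlap (log2 fold change -0.49, edgeR adjusted p = 0.244, and -0.33 without TET1 KO replicate 1), and Mgst3 had -0.62 (0.209), which was -0.068 without WT replicate 1 and -0.94 without WT replicate 3. The pi class had positive values, with 0.81 for Gstp2 (edgeR adjusted p = 0.0883, no overlap, and 0.0300 in DESeq2), 0.51 for Gstp1 (0.196, and 0.33 on the log2 scale without WT replicate 2) and 0.13 for Gstp3 (0.657). For Gstp1 the log2 fold change was 0.76 without WT replicate 3. Summed with Gstp2 and the pseudogene Gstp-ps, a sum chosen after seeing the data, it was 0.83 (edgeR adjusted p = 0.0959). The pseudogene Gstp-ps on chromosome 1, looked at after its values were seen, had 511 ± 175 and 1026 ± 265 CPM (log2 fold change 1.01, edgeR adjusted p = 0.0773, 0.00579 in DESeq2 and 0.0378 in edgeR without TET1 KO replicate 4), and Gstp1 and Gstp2 shared 79.9% and 84.2% of their words with other places. Pi class transcripts are known in bile duct cells too, and the cholangiocyte markers moved in the same direction in these livers; their part was not tested. The remaining 6, Gstk1 (-0.29), Gsto1 (-0.18), Gstz1 (-0.03), Gstm7 (-0.04), Gstcd (-0.34) and Hpgds (-0.09), overlapped between the genotypes. Without TET1 KO replicate 1 the value of Gstk1 was -0.13 and that of Gsto1 -0.11, and without WT replicate 2 that of Gstcd was -0.22. Gm10639 (42, 32 and 6 counts in WT, 0, 2, 2 and 6 in TET1 KO livers), Gstt4, Gsto2 and Mgst2 had too few counts for the filter.

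Genes that supply and spend glutathione, or that answer to the same regulators as the transferases, were then counted in the same fit. Of 16 tested genes for glutathione synthesis, recycling and breakdown, 0 were called (4 lower and 1 higher at an unadjusted p under 0.05, against 26.3% of all tested genes in either direction), with a median log2 fold change of -0.27. Gclc, the catalytic subunit of the enzyme that limits glutathione synthesis, had 370, 322 and 206 CPM in WT and 148, 195, 175 and 130 CPM in TET1 KO livers. The genotypes did not overlap, and a difference of -0.88 on the log2 scale, with a standard error of 0.21, did not pass the test (edgeR adjusted p = 0.0553). Gclc was called by DESeq2 (adjusted p = 0.00305), and in edgeR without WT replicate 3 (0.0168). Its modifier subunit Gclm had -0.41 (0.134), and Gsr, which regenerates reduced glutathione, -0.29 (0.168), again without overlap. Of 12 tested glutathione peroxidases, glutaredoxins and glyoxalases, 0 were called (1 lower and 0 higher at an unadjusted p under 0.05, median -0.03), and of 11 genes for export of conjugates and formation of mercapturates, also 0 (1 lower and 3 higher, median -0.04). These counts are to be read against the same 26.3%.

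Of 20 tested genes of the pathway of NRF2, the factor that induces many transferases and glutathione genes under oxidative stress, 4 were called lower and 0 higher, where 1.15% of all tested genes were called lower and 0.874% higher. At an unadjusted p under 0.05, 10 were lower and 1 was higher, where 26.3% of all tested genes passed, and the median log2 fold change was -0.41. Srxn1, which repairs oxidised peroxiredoxins, fell from 47.8 ± 6.07 to 22.6 ± 3.73 CPM (log2 fold change -1.08, standard error 0.16, edgeR adjusted p = 0.0103). Ephx1, the microsomal epoxide hydrolase, fell from 442 ± 116 to 171 ± 32.2 CPM (-1.37, 0.21, adjusted p = 0.0117 in edgeR). Me1, the malic enzyme that supplies NADPH for lipogenesis and redox reactions, fell from 171 ± 80.0 to 31.0 ± 20.9 CPM (-2.46, 0.46, edgeR adjusted p = 0.0271), and the quinone reductase Nqo1 from 9.18 ± 1.55 to 3.75 ± 1.23 CPM (-1.28, 0.26, edgeR adjusted p = 0.0374). The genotypes overlapped in none of these 4. Nfe2l2, which encodes NRF2, had a log2 fold change of -0.39 (edgeR adjusted p = 0.130), and Keap1, its inhibitor, 0.07 (0.702). Without WT replicate 2 the adjusted p was 0.0719 for Srxn1 and Ephx1 and 0.149 for Me1 and Nqo1. Srxn1 and Ephx1 stayed called without each of the other 6 livers. The call of Me1 was also lost without TET1 KO replicate 1 (0.0562), 2 (0.0568) or 3 (0.0735), and that of Nqo1 without WT replicate 1 (0.0634) or TET1 KO replicate 2 (0.0860) or 3 (0.0650). Over all alternatives the edgeR or DESeq2 adjusted p ran from 1.13e-06 (Srxn1), 1.18e-07 (Ephx1), 0.00490 (Me1) and 0.000485 (Nqo1) up to these values without WT replicate 2.

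Of 17 tested xenobiotic receptors and their cytochrome P450 targets, 1 was called lower and 0 higher, where 1.15% of all tested genes were called lower and 0.874% higher. At an unadjusted p under 0.05, 2 were lower and 3 higher, where 26.3% of all tested genes passed in either direction, with a median log2 fold change of -0.05 over the list. All TET1 KO livers lay above the WT livers in 2 of the 17 (11.7% of all tested genes) and below them in 1 (10.8% of all tested genes). Cyp3a11, a major drug-metabolising cytochrome P450, had 1016, 1501 and 625 CPM in WT and 437, 318, 538 and 429 CPM in TET1 KO livers (log2 fold change -1.28, standard error 0.27, edgeR adjusted p = 0.0437). The lowest WT liver was again replicate 3. The call held without WT replicate 3 or TET1 KO replicate 4 and was lost without WT replicate 1 (adjusted p = 0.0571 in edgeR) or 2 (0.206) or TET1 KO replicate 1 (0.0738), 2 (0.103) or 3 (0.0771), with a lowest value of 0.000169 over all alternatives. The receptor genes themselves did not pass in edgeR, with 0.56 for Nr1i3, which encodes CAR (edgeR adjusted p = 0.105, without overlap, and called higher by DESeq2), 0.20 for Nr1i2, which encodes PXR (0.492), and -0.38 for Ahr (0.300). Of their targets, Cyp1a2 had 0.64 (0.149), and Cyp2b10, at 0.741 ± 0.609 and 0.435 ± 0.327 CPM, had -0.73 (0.539). Without WT replicate 2 these were 0.38 for Cyp1a2, -0.20 for Ahr and close to 0 for Cyp2b10, and without TET1 KO replicate 1 Ahr had -0.22 and Nr1i2 0.063. Without WT replicate 3 Nr1i2 had 0.092 and Cyp2b10 -1.20, and without TET1 KO replicate 2 they had 0.30 and -0.40.

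**Figure D5:**
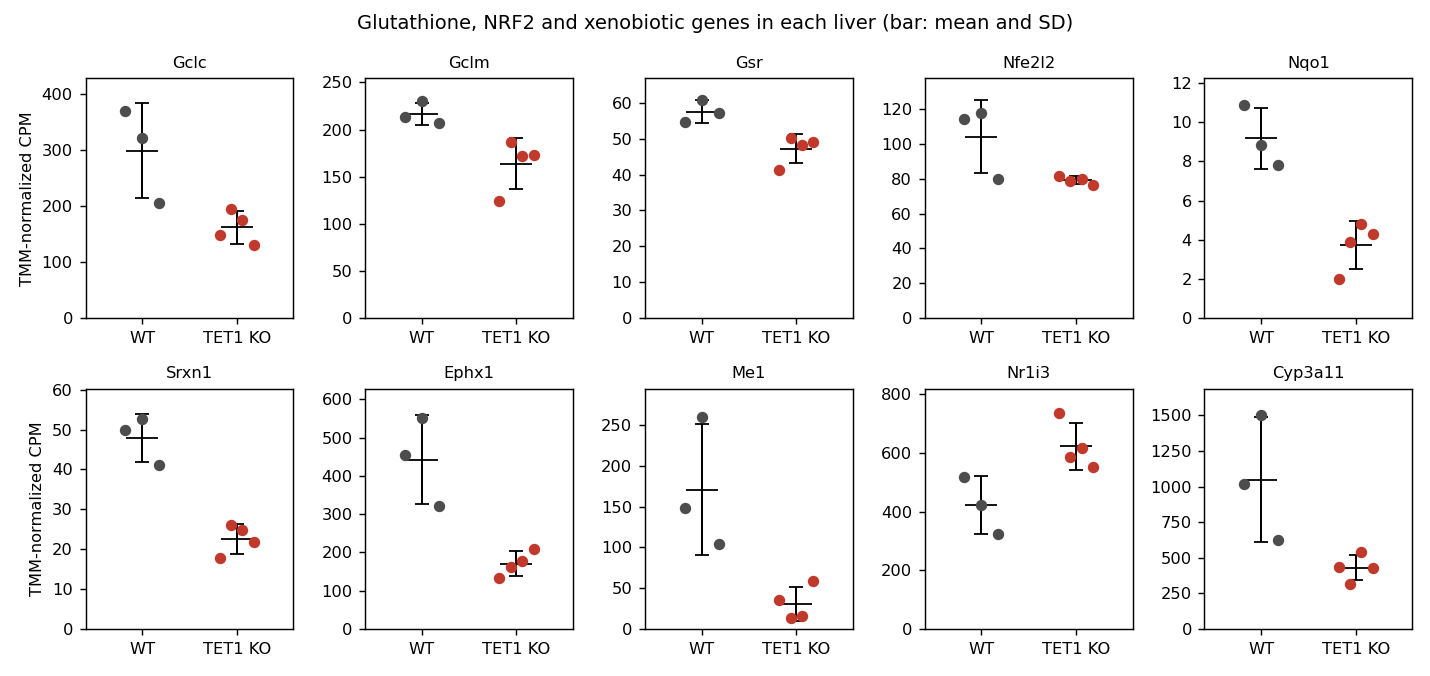
TMM-normalized CPM of 10 genes of glutathione metabolism, the NRF2 pathway and the xenobiotic receptors in each liver (points), with the mean and SD of 3 WT and 4 TET1 KO livers. Srxn1, Ephx1, Me1, Nqo1 and Cyp3a11 were called lower, with no overlap between the genotypes in these 5.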

How the data were processed

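Liver RNA of 3 WT and 4 TET1 KO mice was analysed, and groups were taken from the sample labels. The authors deposited raw counts per Ensembl gene for each mouse, and per the submitters' processing notes the build was GRCm38 and the tools were Trimmomatic 0.36, GSNAP and featureCounts 1.5.3, with no settings. The labels describe a stranded library but not the strand setting of the counting, and they name poly(A) selection and rRNA depletion as alternatives. Tables were joined by identifier, since 26 symbols differed between tables, and 5 repeated entries were left out.

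Counts were tested in R 4.3.3 with edgeR 4.0.16 (filterByExpr, TMM, quasi-likelihood test without covariates, Benjamini-Hochberg adjustment over 14754 genes), and a gene was called at an adjusted p under 0.05. The study's own limits of -3 and 3 on the log2 fold change were tried as an alternative. Log2 CPM used a prior count of 2, and the floor was set at 3 counts per library. DESeq2 1.42.0 was the alternative test, and both were tested on simulated data. Libraries of a genotype differed far beyond sampling noise (chi-square of at least 27.4 for each degree of freedom). No batch or date was labelled.

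The members, gene lists, markers and alternatives were chosen with earlier results of these data known. The genes named are the members, the tested genes of the other transferases, the called genes of the pathway lists (at most 6 a list), 11 regulators, targets and glutathione enzymes, the TET genes and the 5 genes most alike in deviation. Coordinates are those of RefSeq for GRCm38, exon lengths are those of GENCODE M1, and copies of exon sequence were searched in NCBIM37.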

Additional observations from a re-analysis of the deposited data

Results flagged for a closer look

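Among 38 genes and sums of the family examined in the 4 TET1 KO livers, 4 had a liver far from the other 3, where the gap to the nearest liver made up more of the range than Dixon's critical value allows (chance gives about 1 in 20). In each case the statistic is that gap divided by the whole range. For Gstm6 it was 0.904, with TET1 KO replicate 1 at 42.7 CPM below the others at 66.2 to 68.7 CPM. For Gstm5 it was 0.917, with the same liver at 1.94 CPM below 4.25 to 4.45 CPM. For Mgst1 it was 0.858, with a lowest TET1 KO liver at 1591 CPM, and for Gstcd 0.871, with a highest TET1 KO liver at 3.07 CPM.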

How the results depend on the processing

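All 150 alternative values of the 10 members lay within the pooled SD between replicates of the value reported. Leaving out a liver can hardly shift a group mean by more than that SD, so this outcome was largely fixed in advance for those fits. Of the 150 values, 9 had another sign than the value reported and 10 lay on the other side of the threshold. Of 517 alternative values for the other named genes, 456 kept direction and side of the threshold, 34 lost the call, 15 gained it and 12 changed sign.

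The 298 genes called became 1400 with DESeq2, 592 with no filter on low counts, 1327 with the replicate number as a block and 1666 at an adjusted p under 0.1, and 37 (without WT replicate 2) to 891 (without TET1 KO replicate 4) when a liver was left out. The 3 calls among other transferases became 5 with DESeq2, 5 with no filter, 1 with at least 10 counts in every library, 1 within the fold limits and 5 at an adjusted p under 0.1, and 0 to 4 with a liver left out. The 5 calls in the pathway lists became 14 with DESeq2, 8 with library size only and 13 at an adjusted p under 0.1, and 0 to 7 with a liver left out. Library size only gave 107 higher of 419 calls, against 129 of 298, and shifted the median log2 fold change of all genes to -0.08. Same-numbered livers correlated at 0.21, -0.12 and -0.10 in their deviations, so the replicate numbers were not taken as pairs, and under the replicate block 4 members were called (Gstm2, Gstm3, Gstm4 and Gstt2), and Gm3776 (edgeR adjusted p = 0.0504) and Cyp3a11 (0.0680) no longer were. With library size only and with no filter Gsta2 (edgeR adjusted p = 0.0471 and 0.0214) and Gclc (0.0360 and 0.0309) were called. With robust dispersions Gm3776 (0.0507) and Me1 (0.0765) were lost.

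Among the members the sign changed for Gstm6 in 7 alternatives (-0.069 with library size only, -0.029 under the replicate block, and -0.070 to 0.17 with a liver left out) and for Gstt1 in 2 (-0.030 with library size only and -0.083 without WT replicate 3). Among other genes it changed for Keap1 with library size only (-0.020), for Hpgds (0.11) and Tet2 (0.11) under the replicate block, and with a liver left out for Gstm7 (-0.13 to 0.094), Gstp3 (-0.023 to 0.39), Gstz1 (-0.098 to 0.031), Hpgds (-0.47 to 0.77), Cyp2b10 (-1.20 to 5.50e-05) and Tet2 (-0.24 to 0.27). The cause of these changes was not tested. Summing genes that share a name or sequence (Gsta1 with Gm3776, Gstp1 and Gstp2 with Gstp-ps, and Gstm2 with Gstm2-ps1), an alternative chosen after seeing the data, gave 2 calls among other transferases.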
